A study of Mus musculus with 2 samples.

Results

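The genes described here encode the signalling chains, proximal signalling proteins, surface coreceptors and lineage transcription factors of the mouse B cell: Cd79a, Cd79b, Blnk, Btk, Cd22, Cr2, Fcer2a, Pax5 and Ebf1. They were chosen by the gene name printed on the array, and the 9 genes hold 13 probes in 22 spots, of 27597 named genes and 41174 gene probes in all. RNA came from CD8+ T cells that were negatively selected, at a stated purity above 90%, on day 6 after infection of the mice with Listeria monocytogenes-OVA, a bacterium that carries ovalbumin. The deficient group was of genotype Bcl11bF/F/dLck-iCre and the comparison group was wild type, both infected, and no uninfected group was analysed here. In the deficient mice Cre recombinase is driven by the distal Lck promoter, which acts in T cells, so B cells of these animals are not the designed target of the deletion. The study's stated question was which genes Bcl11b deficiency alters in cytotoxic T cells during infection. Each of 2 biological replicates was 1 two-colour Agilent array, with deficient RNA in Cy5 (red) and wild-type RNA in Cy3 (green). Both arrays used the same dye orientation, so a dye effect and a genotype effect on a gene cannot be told apart. The labels do not say how many mice stood behind a replicate or which sex and age they were.

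The B-cell receptor is a membrane immunoglobulin held to a heterodimer of Cd79a and Cd79b, whose cytoplasmic tails recruit the kinase Syk, the adaptor Blnk and the kinase Btk to open calcium signalling. Cd22 damps this signal, Cr2 helps to amplify it for complement-coated antigen, and Fcer2a binds IgE on mature follicular B cells. Ebf1 and Pax5 establish and hold B-cell identity and switch on several of the other genes. Mature T cells express little of this set, and Btk and Blnk are also made by macrophages and other myeloid cells.

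Promoters of the set were read from RefSeq on GRCm38.p6, from 250 bases before to 50 bases after each annotated start, and 8 of the 9 genes had an entry, with 11 windows in all. The octamer ATGCAAAT, bound by Pou2f1 and Pou2f2, which in B cells work with the coactivator Pou2af1, was searched on both strands, where its reverse complement is ATTTGCAT. It stood in 570 of 32851 promoter windows of this length (1.74%) and in 1 of the 11 windows of these genes, that of Blnk, where it began 130 bases before the start (position -130). The second pattern was CCCNNGGG, the core of the site of Ebf factors, which reads the same on both strands. It stood in 4491 windows (13.7%) and again in 1 of the 11, that of Cd22. Both windows are shown because Blnk is one of the genes called in these data and Cd22 is a measured gene that did not pass. Each is printed 5′ to 3′ on the gene's minus strand, with the matched letters in capitals, for Blnk at chr19:40994172-40994471 and for Cd22 at chr7:30878979-30879278.
Blnk: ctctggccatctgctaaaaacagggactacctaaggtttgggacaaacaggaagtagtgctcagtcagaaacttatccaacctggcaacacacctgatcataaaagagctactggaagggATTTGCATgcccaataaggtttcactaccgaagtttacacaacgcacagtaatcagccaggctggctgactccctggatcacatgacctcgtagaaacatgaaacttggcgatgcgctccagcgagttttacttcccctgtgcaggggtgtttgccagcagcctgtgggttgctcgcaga
Cd22: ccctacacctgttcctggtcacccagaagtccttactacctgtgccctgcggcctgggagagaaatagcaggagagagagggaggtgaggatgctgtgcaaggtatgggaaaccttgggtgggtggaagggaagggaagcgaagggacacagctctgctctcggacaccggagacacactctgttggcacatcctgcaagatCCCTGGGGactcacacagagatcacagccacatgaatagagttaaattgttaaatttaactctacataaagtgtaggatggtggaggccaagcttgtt
A match describes the letters alone and does not show that a factor was bound there.

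Bcl11b itself was checked first. Its brighter probe, on chr12:108363444-108363503 (NCBI36, mm8, the build of all probe positions here), gave mean spot signals as scanned of 3015 in wild type and 1917 in deficient RNA on replicate 1, and of 4808 and 1292 on replicate 2. Its log2 ratio of deficient over wild type, after background correction and dye normalization, was -0.69 on replicate 1 and -2.95 on replicate 2, a mean of -1.82 ± 1.60 (SD, n = 2; limma adjusted p = 6.55e-04). Wild-type RNA held more Bcl11b on both arrays, with a far larger difference on replicate 2. A second probe gave -1.09 and -2.03, and because deficient RNA was undetected by it on both arrays its difference is a bound, at least 2.81-fold more in wild type. Bounds of this kind set the brighter channel's mean against the lowest detected signal of the dimmer one, or the probe's own level there where higher.

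The scanner flagged each channel of each spot as well above background or not. Gene-level values were tested where the same channel was above background on both arrays, which left 9931 genes and 3 of the 9 genes of the set. With 1 residual degree of freedom, limma gave every gene the same standard error of 0.42, and the smallest mean log2 ratio that passed an adjusted p of 0.05 was 1.18 in size. Over all genes tested, 364 were called higher in deficient RNA (3.67%) and 593 lower (5.97%). The median log2 ratio was -0.22 on replicate 1 and -0.01 on replicate 2, and 26% of genes had opposite signs on the 2 arrays. The ratios of the arrays correlated across genes with r = 0.594, where genes are not independent replicates. The median signal of the negative control spots was 326.5 (replicate 1) and 406.1 (replicate 2) in green and 968.4 and 706.9 in red, over a local background of 37 in green and 47 in red. The red channel therefore started from a higher floor than the green one, and the red and green signals of a dim spot as scanned cannot be set against each other directly.

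Cd79b and Blnk were higher in Bcl11b-deficient RNA on both arrays. Of the 3 tested genes of the set they were the 2 called, both in that direction, and none was called lower. Over all genes tested, 3.67% were called higher and 5.97% lower. The calls of Cd79b and Blnk held in 10 of 15 other settings. They were lost with median centring in place of loess, where both genes also lay below 0 on replicate 1 (Cd79b -0.27, Blnk -0.32). They were also lost with the scanner program's own ratios or the value table that holds them, with no filter on dim probes and with separate channels. Settings that changed only the filter on dim probes or the probe rule left both ratios unchanged, so a call kept there is no check of the ratio. Cd22 was also higher on both arrays without passing the test. The median of the 3 tested genes was 1.59, beside -0.12 over all genes tested. These 3 passed a filter on detection and do not stand for the whole set. Btk, Cr2, Fcer2a and Pax5 were lower in deficient RNA on replicate 1 and higher on replicate 2, with 1 channel undetected on each array. Cd79a was detected in 1 of the 4 channels, and Ebf1 in none.

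**Figure D1:**
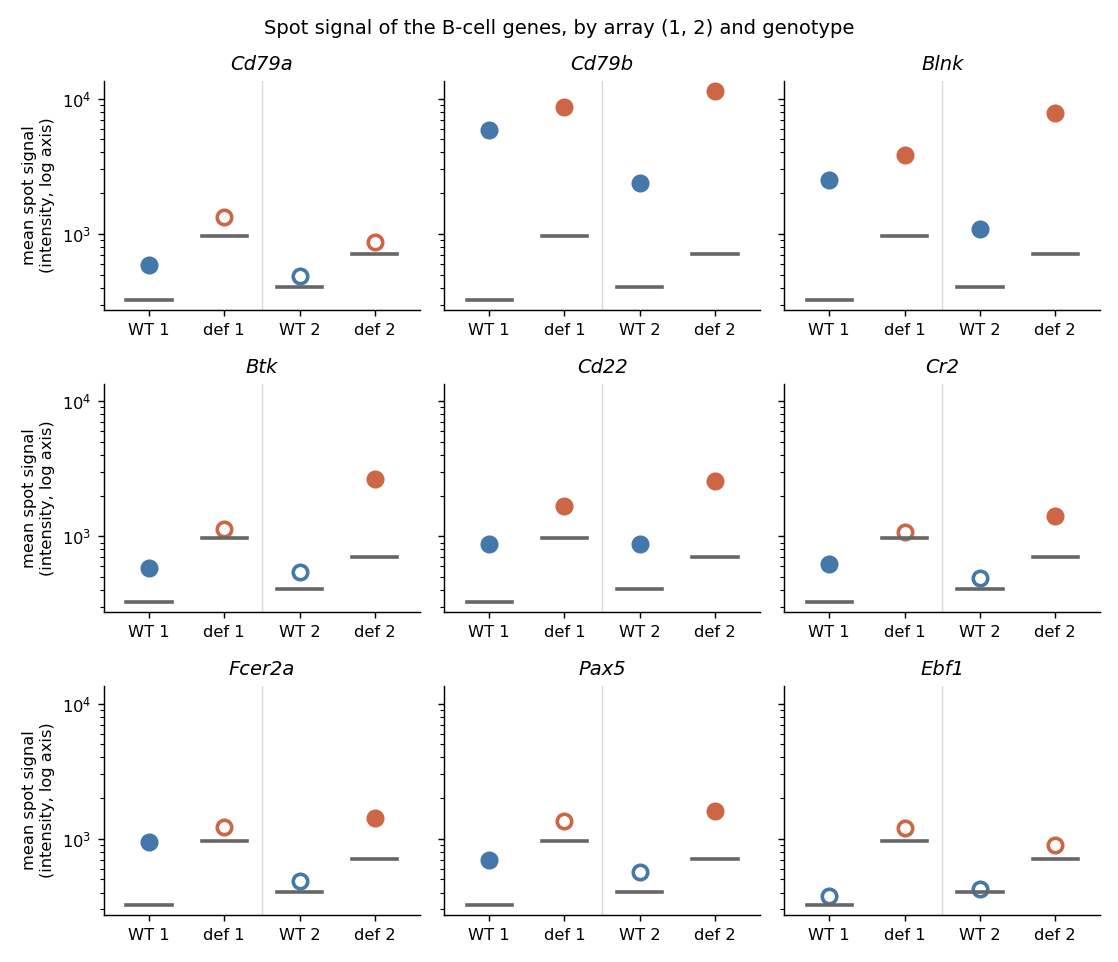
Mean spot signal as scanned (intensity, log axis) of the brighter probe of each gene in wild-type (WT, blue) and deficient (def, orange) RNA on arrays 1 and 2. Filled circles were well above background, open circles were not, and each grey bar is the median of the 153 negative control spots of that channel. Cd79b, Blnk and Cd22 are filled in all 4 channels, Btk, Cr2, Fcer2a and Pax5 in the wild-type channel of array 1 and the deficient channel of array 2, and Ebf1 in none.

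Cd79b encodes a chain of the signalling heterodimer. Its single probe, on chr11:106127556-106127615, gave mean signals of 5913 in wild type and 8736 in deficient RNA on replicate 1, and of 2396 and 11310 on replicate 2. All 4 values were well above background, and on each array the deficient channel was the brighter one, by more on replicate 2. The log2 ratios were 1.34 and 1.84, a mean of 1.59 ± 0.35 (SD, n = 2; limma adjusted p = 0.00399). These ratios lay close together on the 2 arrays, but with median centring in place of loess they were -0.27 and 1.62.

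Cd79a, the obligate partner of Cd79b in the receptor, was hardly detected. Its probe of 60 bases aligned to chr7:24608094-24608351, a longer interval than the probe, so the match is split on the genome. Its mean signals were 589.4 in wild type and 1324 in deficient RNA on replicate 1, and 486.6 and 871.7 on replicate 2. Only the wild-type channel of replicate 1 was well above background, so Cd79a was not tested. The log2 ratios of -0.30 and -0.05, a mean of -0.17 ± 0.18 (SD, n = 2), rest on signals near the floor. A difference between Cd79a and Cd79b was not tested, and the level of one probe cannot be set against that of another.

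Blnk, the adaptor that links Syk to Btk and phospholipase C gamma, had the largest mean of the tested genes of the set. Its probe on chr19:40982249-40982308 gave signals of 2514 in wild type and 3855 in deficient RNA on replicate 1, and of 1077 and 7790 on replicate 2. Deficient RNA was brighter on both arrays, and the gap on replicate 2 was much wider. The log2 ratios were 1.11 and 2.59, a mean of 1.85 ± 1.05 (SD, n = 2; limma adjusted p = 5.23e-04). This is the gene whose promoter window holds the octamer printed above.

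Btk, the Tec-family kinase activated next to Blnk, gave opposite answers on the 2 arrays. Its probe on chrX:129888872-129888931 is printed in 10 spots, while each other probe of the set has 1. Mean signals were 587.9 in wild type and 1129 in deficient RNA on replicate 1, and 544.9 and 2673 on replicate 2. The wild-type channel was above background on replicate 1 alone and the deficient channel on replicate 2 alone. The log2 ratio was -0.96 on replicate 1 and 2.12 on replicate 2, a mean of 0.58 ± 2.18 (SD, n = 2).

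The spots of Btk within an array agreed far better than the arrays did. On replicate 1, 9 unflagged spots ran from -1.13 to -0.77 with a median of -0.95 and an SD of 0.12. On replicate 2, 10 spots ran from 1.94 to 2.18 with a median of 2.16 and an SD of 0.08. These spreads are near the median SD of the 245 probes printed in 10 spots, which was 0.12 and 0.09. As scanned, wild-type signals of the spots lay between 502.8 and 668.4 on replicate 1 and between 493.6 and 573.4 on replicate 2. These ranges overlapped, but the median green negative control was 326.5 on replicate 1 and 406.1 on replicate 2. With the scanner's fitted background subtracted, the mean wild-type signal was 249.9 on replicate 1 and 130.1 on replicate 2. Deficient signals as scanned lay between 1086 and 1210 on replicate 1 and between 2239 and 2904 on replicate 2, with no overlap. Their subtracted means were 135.1 and 1948. A further spot on replicate 1, marked as an outlier by the scanner software and left out, had a deficient signal of 1442 and a ratio of -0.05. Spots are repeats of 1 hybridisation and not replicates of the comparison.

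**Figure D2:**
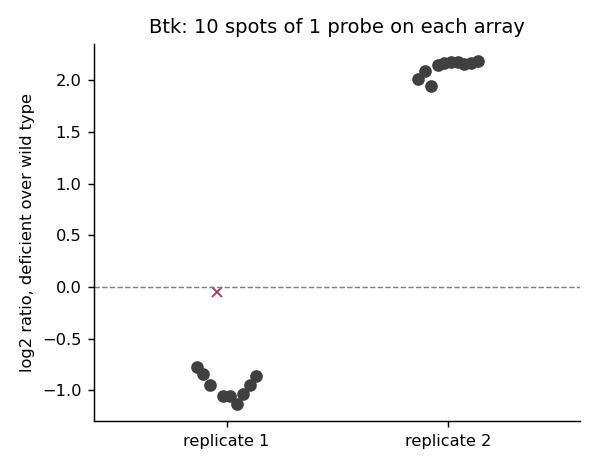
Log2 ratio of deficient over wild type for each spot of the Btk probe (10 spots per array), with the spot marked as an outlier by the scanner software as a cross. Unflagged spots lie between -1.13 and -0.77 on replicate 1 and between 1.94 and 2.18 on replicate 2, on opposite sides of 0.

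Among the surface coreceptors, Cd22, an inhibitory sialic-acid-binding lectin, was detected in all 4 channels. Its brighter probe, on chr7:30575331-30575390, gave signals of 877.4 in wild type and 1675 in deficient RNA on replicate 1, and of 873.6 and 2565 on replicate 2. As scanned, the wild-type signals were nearly equal on the 2 arrays and the deficient signal was higher on replicate 2. The floors of the arrays differed, however. On the per-channel level given below, replicate 2 minus replicate 1 was -0.45 in wild type and 0.31 in deficient RNA. The log2 ratios were 0.36 and 1.12, a mean of 0.74 ± 0.54 (SD, n = 2; limma adjusted p = 0.288), which did not pass. A second Cd22 probe, split over chr7:30584884-30586208, was above background in no channel, with ratios of -0.57 and 0.08.

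Cr2, which encodes the complement receptors CD21 and CD35, showed the same reversal as Btk. Its brighter probe, on chr1:196841901-196841960, gave signals of 620.4 in wild type and 1074 in deficient RNA on replicate 1, and of 494.8 and 1425 on replicate 2. Wild type was above background on replicate 1 alone and deficient RNA on replicate 2 alone. The log2 ratios were -1.39 and 1.09, a mean of -0.15 ± 1.75 (SD, n = 2). The other Cr2 probe, on chr1:196864079-196864138, was above background in no channel, with ratios of -0.09 and 0.22.

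Fcer2a, the low-affinity IgE receptor CD23, also changed sign between the arrays. Its probe on chr8:3682021-3682080 gave signals of 944.9 in wild type and 1222 in deficient RNA on replicate 1, and of 484.5 and 1417 on replicate 2. Here too the detected channel was wild type on replicate 1 and deficient RNA on replicate 2. The log2 ratios were -1.07 and 1.11, a mean of 0.02 ± 1.54 (SD, n = 2).

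Of the transcription factors, Pax5, the factor that maintains B-cell commitment, had 1 detected probe, on chr4:44546164-44546223. Its signals were 697.7 in wild type and 1351 in deficient RNA on replicate 1, and 567.7 and 1596 on replicate 2. The channels above background were again wild type on replicate 1 and deficient RNA on replicate 2. The log2 ratios were -0.36 and 1.02, a mean of 0.33 ± 0.97 (SD, n = 2). A second Pax5 probe, split over chr4:44558582-44591136, was above background in no channel, with ratios of -0.62 and -0.33.

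Ebf1, which acts upstream of Pax5 in B-cell specification, was not well above background in any channel with either of its probes. The brighter one, on chr11:44848286-44848345, gave 378 and 1194 on replicate 1 and 428.7 and 906 on replicate 2, in the order wild type and deficient. The other, on chr11:44492539-44492598, gave 285.2 and 699.9 on replicate 1, and 283.1 and 622.5 on replicate 2. No ratio of Ebf1 is measured here, and its transcript was not detectable at these signals.

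**Figure D3:**
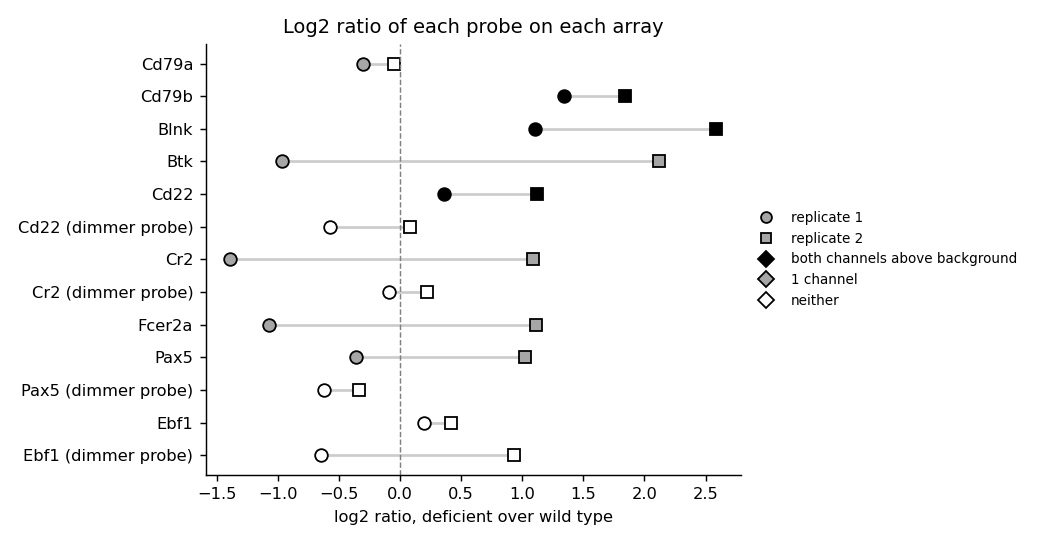
Log2 ratio of deficient over wild type (x axis) for each of the 13 probes on replicate 1 (circles) and replicate 2 (squares), joined by a line. Black symbols had both channels above background, grey symbols 1 channel and white symbols neither. Cd79b, Blnk and the brighter Cd22 probe lie above 0 on both arrays, and Btk, Cr2, Fcer2a and the brighter Pax5 probe lie below 0 on replicate 1 and above 0 on replicate 2.

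Counted by channel, the wild-type RNA of replicate 1 had 8 of the 9 genes well above background, all but Ebf1, and the deficient RNA of replicate 1 had 3. On replicate 2 the order turned, with 3 genes in wild-type RNA and 7 in deficient RNA. The 3 genes were Blnk, Cd22 and Cd79b each time. In probes these counts were 8 and 3 of 13 on replicate 1 and 3 and 7 of 13 on replicate 2. Over all gene probes the shares above background were 32.1% and 25.6% on replicate 1 and 28.6% and 30.5% on replicate 2. The array-wide shares of probes thus turned the same way by a smaller amount. The pattern of wild type alone on replicate 1 and deficient alone on replicate 2 was found in 4 of the 13 probes of the set, those of Btk, Cr2, Fcer2a and Pax5. Over the whole array it was found in 211 of 41174 probes (0.512%), and the opposite pattern in 6 probes (0.0146%), none of them in the set. The pattern was singled out after its values were seen, and it has no test.

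With the filter relaxed to any detected channel on each array, a setting chosen after seeing the data, 10073 genes were fitted, of which 340 were called higher (3.38%) and 537 lower (5.33%). It took in 7 genes of the set, with Cd79b and Blnk again the 2 called. Btk, Cr2, Fcer2a and Pax5 entered it through wild-type RNA on replicate 1 and deficient RNA on replicate 2, which fixes their opposite signs, so no p is given for them. These data do not show whether deficient and wild-type cells differed in these 4 genes.

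The signs of these 4 genes were the same under each of 8 background corrections and normalizations. The detection pattern that singled them out fixes these signs, and each setting reprocesses the same 2 arrays. This sameness therefore lends the signs no support. Btk ranged from -2.18 to -0.48 on replicate 1 and from 1.55 to 3.06 on replicate 2. Cr2 ranged from -1.98 to -0.65 and from 0.68 to 2.18. Fcer2a ranged from -1.75 to -0.50 and from 0.69 to 2.08, and Pax5 from -0.74 to -0.14 and from 0.68 to 1.48. Blnk, Cd22 and Cd79b were above 0 on both arrays in 7 of the 8, and with median centring in place of loess they fell below 0 on replicate 1, at -0.32, -0.27 and -0.27. For these 3 tested genes the ratio was larger on replicate 2 than on replicate 1, as it was for 61.8% of all genes tested.

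Cd79b, Blnk and Cd22 were detected in every channel, so their levels can be compared between the arrays channel by channel. On a per-channel log2 level made comparable across arrays (loess, then Aquantile), the wild-type level on replicate 2 minus that on replicate 1 was -1.55 for Cd79b, -1.62 for Blnk and -0.45 for Cd22, beside a median of -0.12 over all genes tested. The deficient level differed by -1.05 for Cd79b, -0.14 for Blnk and 0.31 for Cd22, beside a median of 0.13. With 1 array on each side these differences have no test. Btk, Cr2, Fcer2a and Pax5 were each undetected in 1 channel of each array and give no such difference. In RNA of a whole cell preparation, fewer cells of a type and less RNA per cell cannot be told apart.

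Other B-cell genes were read from lists, none of which holds a gene of the set. The shares over all genes tested, 3.67% called higher and 5.97% lower, stand beside each list's counts here and below. Of 21 further identity and surface genes, 19 were tested, and 6 were called higher, 0 lower and 13 did not pass. The list's median was 0.69, at 0.20 on replicate 1 and 1.67 on replicate 2. Cd83, a marker of activated B cells and dendritic cells, had ratios of 1.51 and 2.50 (mean 2.00 ± 0.70, SD, n = 2; limma adjusted p = 1.29e-04). Cd24a, a surface sialoglycoprotein of immature lymphocytes and red cells, gave 1.29 and 2.65 (limma adjusted p = 1.71e-04). Ms4a1, which encodes CD20, gave 1.42 and 2.46 (limma adjusted p = 2.22e-04), and Ly6d, an early B-lineage surface protein, gave 1.67 and 2.09 (limma adjusted p = 3.98e-04). Of the 19, 9 lay below 0 on replicate 1 and 1 on replicate 2.

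Of the immunoglobulin and surrogate light chain genes, 9 were on the array and 7 were tested, with 5 called higher, 0 lower and a median of 1.39. Iglv1, a lambda light chain variable gene, gave 2.15 and 3.27 (mean 2.71 ± 0.79, SD, n = 2; limma adjusted p = 2.98e-08). Igh, a heavy chain probe, gave 0.65 and 3.90 (limma adjusted p = 7.18e-06). Jchain, the joining chain of secreted IgM and IgA, gave 1.00 and 3.01 (limma adjusted p = 1.26e-04), and Ighg gave 1.50 and 1.29 (limma adjusted p = 0.0156). Wild-type RNA was detected by the Ighg probe on 1 of the 2 arrays. Immunoglobulin segments share sequence, so a probe's signal cannot be assigned to 1 segment with certainty.

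Of 33 genes of B-cell receptor signalling, 26 were tested, with 4 higher, 1 lower, 21 not past the threshold and a median of 0.39. Cd81, a tetraspanin that many cell types express, gave 2.66 and 2.61 (mean 2.63 ± 0.04, SD, n = 2; limma adjusted p = 7.11e-08). Lyn, the Src-family kinase that phosphorylates the Cd79 tails, gave 1.33 and 2.35 (limma adjusted p = 5.54e-04), and Plcg2, the phospholipase that Btk activates, gave 1.18 and 2.19 (limma adjusted p = 0.00204). The gene called lower was Fyn, a Src-family kinase prominent in T cells, which deficient RNA did not show above background on either array, a bound of at least 1.3-fold more in wild type (limma adjusted p = 0.0383).

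Of 21 B-cell transcription factors, 16 were tested, with 2 higher, 3 lower and a median of -0.24. Irf8, a factor of B cells, macrophages and dendritic cells, gave 1.66 and 2.42 (mean 2.04 ± 0.54, SD, n = 2; limma adjusted p = 8.72e-05). Ets1, Lef1 and Tcf3, which T cells also use, were lower, with means of -1.83 (limma adjusted p = 6.22e-04), -1.55 (limma adjusted p = 0.00543) and -1.38 (limma adjusted p = 0.0165). Deficient RNA was detected by the Tcf3 probe on 1 of the 2 arrays. Pou2af1, the coactivator of octamer factors, was the other gene called higher, at 0.94 and 1.72 (limma adjusted p = 0.0225). Of 10 plasma cell genes, 6 were tested, with 1 higher (Jchain), 2 lower and a median of 0.93. The 2 lower were Edem1 (mean -1.40, limma adjusted p = 0.0152) and Txndc5 (mean -1.26, limma adjusted p = 0.0336), general proteins of the endoplasmic reticulum. Txndc5 was detected in deficient RNA on 1 of the 2 arrays. Creld2 gave 0.97 and did not pass (limma adjusted p = 0.131).

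Markers of several other cell types were also called higher in deficient RNA. Of 13 macrophage markers tested, all 13 were called higher, with a median of 3.17, at 2.92 on replicate 1 and 3.31 on replicate 2. They included Apoe (mean 3.91), C1qc (3.49), Adgre1 (3.35) and Vcam1 (3.32). The 15 macrophage markers on the array were above background for 12 and 13 genes on replicate 1 and for 12 and 15 on replicate 2, in wild-type and deficient RNA. Neutrophil markers were higher for 3 of 8 (median 1.12), erythroid markers for 4 of 4 (median 1.44, at 0.74 and 2.34 on replicates 1 and 2), dendritic cell markers for 2 of 4 (median 0.67, at 0.33 and 1.69) and NK cell markers for 1 of 4 (0.72). Markers of stroma, follicular dendritic cells and endothelium, which can express Cr2 and Ebf1, were higher for 1 of 4, Vwf at 1.59 (limma adjusted p = 0.00399), with a median of 0.20. The part of these other cells in the values of Blnk, Btk, Cr2 and the other genes was not tested.

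Of 14 T-cell markers tested, 8 were called lower, 0 higher and 6 did not pass, with a median of -1.26. The labelled cell type was visible in every channel, with 14, 12, 14 and 13 of 15 T-cell markers above background in wild type and deficient RNA of replicate 1 and then of replicate 2. Cd8a and Cd8b1 were detected in both channels of both arrays, with means of -0.91 and -1.10 that did not pass (limma adjusted p = 0.166 and 0.0748). Tcra (mean -2.84), Cd6 (-2.56), Cd3e (-2.34) and Cd5 (-1.88) had the smallest adjusted p among them, and deficient RNA was detected by the Tcra and Cd3e probes on 1 of the 2 arrays. Of 2 CD4 T-cell markers tested, none passed, and of the platelet and mast cell markers 1 was tested, at 0.57 and not past the threshold.

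**Figure D4:**
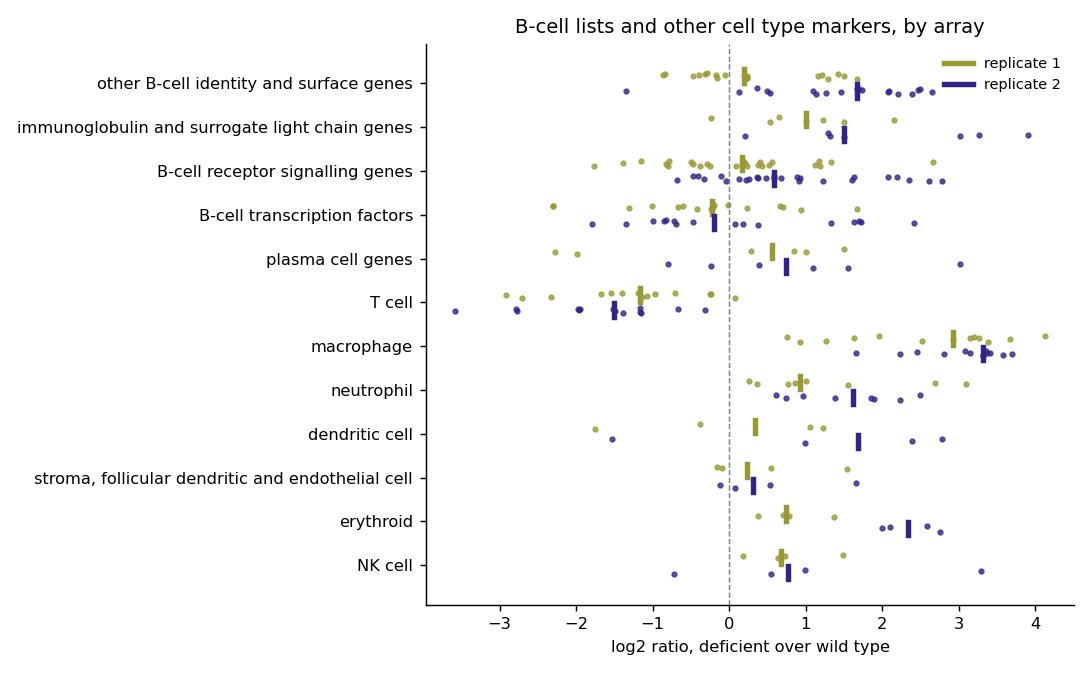
Log2 ratio of deficient over wild type (x axis) of each tested gene in the B-cell lists and in lists of markers of other cell types, on replicate 1 (olive) and replicate 2 (dark blue), with the list's median on each array as a bar. Macrophage markers lie above 0 on both arrays, with medians of 2.92 and 3.31, and the other B-cell identity genes have medians of 0.20 and 1.67. Dendritic cell markers (0.33 and 1.69) and erythroid markers (0.74 and 2.34) have a like gap between the arrays.

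The genes whose pair of ratios lay nearest to the median pair of the 3 tested genes, 1.11 and 1.84, were sought over all genes tested. That pair joins Blnk's ratio on replicate 1 to Cd79b's on replicate 2, and no gene of the set has both values. The nearest was Gabarapl1, an autophagy protein, at 1.10 and 1.90, a distance of 0.0553. It was followed by Fuca1, a lysosomal fucosidase (0.0876), Gsn, an actin-severing protein (0.111), Slamf8, a surface receptor of myeloid cells (0.112), and Tnfaip2 (0.138). Likeness over 2 arrays rests on 2 values a gene.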

How the data were processed

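CD8+ T-cell RNA of Bcl11bF/F/dLck-iCre and wild-type mice was compared on 2 two-colour arrays. Per the labels' protocols it was linearly amplified before labelling. Each spot's mean and local background intensity was taken from the deposited scanner output of Agilent Feature Extraction (9.5.3.1, per the file headers and the submitters' processing notes). The deposited log10 ratios of the same program, which are also the series' value table (largest difference 0.005), served as alternatives.

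Normexp (offset 50) corrected the background and within-array loess, to which control spots gave no weight, the dyes. Flagged spots were left out (255 and 195 gene spots). Duplicate spots were averaged. A probe counted as detected where at least 0.5 of its unflagged spots were well above background, and the brightest detected probe stood for its gene. Limma 3.58.1 (R 4.3.3) tested each mean log2 ratio for a difference from 0, two-sided, with Benjamini-Hochberg adjustment over all genes tested. Only the limma fit and its adjustment were tested on simulated data, with normal ratios of equal spread on both arrays. The real ratios had an SD across genes of 0.96 on replicate 1 and 0.65 on replicate 2. The steps before the fit were not simulated. The labels call the arrays biological replicates and do not describe separate animals or pools. The p-values rest on 1 variance that limma shared over all genes of these 2 arrays. A gene's own spread between the arrays, printed as its SD, does not enter its p. The number of arrays limits the precision. Probes were named by accession (24375) or symbol (8727) through RefSeq, and 8072 kept the array's name. Alternatives were another background correction, normalization, filter, probe rule or test.

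The genes and lists were chosen with earlier results of these data known. Named were all 9 genes with every probe, Bcl11b, up to 4 genes per list with the smallest adjusted p, and the 5 nearest genes. A gene that the rule for lists would name is not reported here.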

Additional observations from a re-analysis of the deposited data

How the results depend on the processing

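Of 13 other settings and 2 added after seeing the data, none reversed the mean of Cd79b, Blnk or Bcl11b. Cd79b passed in 10 of 15 (means 0.68 to 1.71, limma adjusted p from 4.3e-05 to 0.467), Blnk in 10 of 15 (1.05 to 2.10, limma adjusted p from 4.83e-06 to 0.268) and Cd22 in 0 of 15 (0.37 to 0.85, limma adjusted p from 0.101 to 0.682). With median centring, Feature Extraction ratios, the value table, no filter on dim probes, or separate channels in limma, 0 genes of the set passed. Settings that changed only the filter or the probe rule did not change the ratios of Cd79b, Blnk and Cd22. Calls over all genes (957 as reported, 62% lower) were 482 with no background correction (39.2% lower), 418 with the fitted background surface (43.3%), 417 with median centring (83.5%) and 115 with Feature Extraction ratios or the value table (56.5%). Limma called 0 with no filter and 0 with separate channels, where 5116 and 1987 genes had an unadjusted p under 0.05. Centring on the genes tested gave 51% lower and requiring both channels above background 28.1%. The median over the set was 0.68 with median centring, 0.33 with no filter (9 genes) and 0.58 with any detected channel on each array (7 genes), and without replicate 1 or 2 it was 1.84 or 1.11, on single arrays with no test. Bcl11b did not pass with no background correction (-1.52, limma adjusted p = 0.0635), Feature Extraction ratios (-2.17, limma adjusted p = 0.139), the value table (-2.18, limma adjusted p = 0.139), no filter (-1.82, limma adjusted p = 0.271) or separate channels (-1.82, limma adjusted p = 0.228), and its single-array values were -2.95 and -0.69. The cause of these changes was not tested. The ratio within an array already pairs the deficient and wild-type RNA of 1 replicate, so no further block was fitted. Signals near the negative controls limit Cd79a, Ebf1 and the dimmer probes. The undetected channel of Btk, Cr2, Fcer2a and Pax5 on each array limits their ratios too.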

Other observations

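Detection of wild-type RNA alone on replicate 1 and of deficient RNA alone on replicate 2, the pattern of Btk, Cr2, Fcer2a and Pax5, was counted in the other B-cell lists, with any probe of a gene. Over the whole array 209 of 27597 named genes had it, and a gene with more probes has more chances to show it. The pattern was present in 6 of 9 immunoglobulin genes on the array, Igh, Ighg, Ighm, Iglv1, Jchain and Vpreb3. It was present in 4 of 21 B-cell transcription factors (Bcl11a, Mef2c, Tcf4 and Zfp318), in 3 of 33 signalling genes (Lyn, Pik3ap1 and Syk) and in 1 of 21 other identity genes, Tnfrsf13b, a receptor of B-cell survival factors. Among other markers, 0 of 15 T-cell, 0 of 11 neutrophil, 0 of 9 dendritic cell and 0 of 6 erythroid genes had it. It was present in 1 of 15 macrophage genes, Csf1r. A probe with this pattern cannot pass the detection filter, so in each of these genes but Mef2c, Syk and Tnfrsf13b, which were not tested, another probe gave the tested ratio. Those other probes of Igh, Ighm, Iglv1, Jchain, Lyn, Bcl11a and Csf1r were above background in both channels of both arrays. The median wild-type level on replicate 2 minus replicate 1 was -1.55 for immunoglobulin genes, -1.31 for erythroid markers, -0.94 for other B-cell identity genes, -0.49 for neutrophil markers and -0.45 for plasma cell genes. It was -0.29 for macrophage markers, -0.27 for B-cell receptor signalling genes, -0.23 for B-cell transcription factors and 0.03 for T-cell markers. Over all genes tested it was -0.12. In deficient RNA this difference was -0.38 for immunoglobulin genes, 0.37 for other B-cell identity genes, 0.08 for macrophage markers and -0.27 for T-cell markers. Dendritic cell markers gave -0.23 in wild type and 1.25 in deficient RNA, and all genes tested gave 0.13 in deficient RNA. The medians include genes that wild-type RNA did not show above background on each array, such as Ighg and Vpreb3. The counts were made after the pattern had been seen and have no test.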
